A study of Mus musculus with 11 samples.

Results

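Genes of Golgi and vesicle transport were examined in the ventricles of mice whose hearts overexpress angiotensinogen, from which the hormone angiotensin II is cut. A gene was taken when its platform symbol starts with Rab or Arf and a digit, with Cop and a, b, e, g or z, or with Sec13, Sec22, Sec23, Sec24, Sec31, Trappc, Tmed or Golg. The rule uses names and no measured value, and it found 84 of the 8106 named genes tested. All 84 had values on enough arrays to be tested. They are 32 Rab GTPases and 8 Rab effectors and regulators, 4 Arf GTPases, 6 subunits of the COPI coat, 9 genes of the COPII coat, 7 p24 cargo receptors of the Tmed family, 3 genes of the Sec22 family, 9 subunits of the TRAPP tethering complexes and 6 genes with a Golg symbol.

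Proteins made on the endoplasmic reticulum leave it in vesicles with a COPII coat, and the COPI coat, which the small GTPase Arf1 recruits, carries material back from the Golgi. The p24 proteins bind cargo in both kinds of vesicle, tethers such as TRAPP and the golgins catch arriving vesicles, and SNAREs such as Sec22b drive membrane fusion. Rab GTPases mark the individual membrane compartments and recruit the effectors that move and dock vesicles. In cardiac muscle this route delivers ion channels, receptors and secreted peptides, among them the natriuretic peptides.

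The 12 animals were male mice of the TG1306/1R line on a C57/BL6 background, about 60 weeks old. The Dil group were heterozygous (+/-) transgenic mice with a dilated heart, the Hyp group heterozygous (+/-) transgenic mice with hypertrophy, and the WT group littermates without the transgene (-/-), with 4 mice in each. Carriers were placed in the Dil or Hyp group by chamber morphology, cardiac weight index and hypertrophic marker expression, so the groups were chosen on the phenotype and not by treatment. The Dil mice had a cardiac weight index (heart relative to body) of 8.23 ± 0.665 mg/g, the Hyp mice one of 5.54 ± 0.180 mg/g and the WT mice one of 4.53 ± 0.287 mg/g (SD, n = 4 each). The labels give one Hyp mouse 2 values of the index, 5.3 and 5.6 mg/g, and their mean was used.

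Total RNA of both ventricles and the septum was measured on 11 cDNA arrays with 2 colours, each comparing 2 mice with the same number, here called a set. Of these arrays 3 compared Dil with WT (sets 1, 3 and 4), 4 compared Hyp with WT and 4 compared Dil with Hyp. The Dil and WT array of set 2 was not analysed here. Dil RNA carried the dye Cy5 on the Dil and WT arrays of sets 1 and 3, and Cy3 on that of set 4. Ratios of single arrays are given below without a dye correction, while the fitted changes come from a fit with a dye term. The values are log ratios, so they give differences between 2 mice and no level of any gene. Whole ventricle was measured, and fewer cells of a type cannot be told apart from less RNA per cell. Values were read as log2 of Cy5 over Cy3, and neither the base nor the order of the dyes is stated in the labels. The direction is likely because Nppb, a marker of hypertrophy, and Agt, the overexpressed gene, then come out higher in both carrier groups, and with the opposite direction every sign below would turn.

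Promoters are shown for the transport genes that carry the unfolded protein response element TGACGTGG, a site bound by transcription factors that act when the endoplasmic reticulum is loaded, because genes of both coats are among them. RefSeq promoters (GRCm38.p6, 250 bases before to 50 after the start) were at hand for 70 of the 84 genes, with 91 windows. The element, searched on both strands, was in 5 of these windows (5.49%), which belong to 4 genes, and in 222 of all 32851 windows (0.676%). The element was chosen with results of these data known, and windows of the same gene overlap. Each sequence runs 5′ to 3′ on the strand of the gene, with the element in capitals. In the Copb2 window it lies on the opposite strand and reads CCACGTCA.
Arf1 promoter, chr11:59228113-59228412, minus strand: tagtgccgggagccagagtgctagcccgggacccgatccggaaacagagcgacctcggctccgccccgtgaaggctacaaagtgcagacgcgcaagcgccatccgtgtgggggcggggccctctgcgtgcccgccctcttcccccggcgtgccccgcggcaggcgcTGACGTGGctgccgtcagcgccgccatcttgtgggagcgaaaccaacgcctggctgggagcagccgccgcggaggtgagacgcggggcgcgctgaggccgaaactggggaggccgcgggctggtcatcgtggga
Copb2 promoter, chr9:98563481-98563780, plus strand: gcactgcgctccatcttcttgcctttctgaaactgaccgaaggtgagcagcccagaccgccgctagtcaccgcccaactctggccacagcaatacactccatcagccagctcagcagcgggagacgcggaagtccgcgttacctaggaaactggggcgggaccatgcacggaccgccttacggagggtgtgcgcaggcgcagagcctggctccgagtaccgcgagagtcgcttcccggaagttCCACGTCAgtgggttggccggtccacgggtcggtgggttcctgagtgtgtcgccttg
Sec23a promoter, chr12:59011968-59012267, minus strand: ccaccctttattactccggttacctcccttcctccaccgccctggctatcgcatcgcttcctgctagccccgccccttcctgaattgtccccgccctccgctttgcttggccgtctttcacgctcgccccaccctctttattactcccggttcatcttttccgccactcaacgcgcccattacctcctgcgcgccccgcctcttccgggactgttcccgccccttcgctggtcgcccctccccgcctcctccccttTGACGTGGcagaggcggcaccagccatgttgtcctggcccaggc
Sec24d promoter, chr3:123267246-123267545, plus strand: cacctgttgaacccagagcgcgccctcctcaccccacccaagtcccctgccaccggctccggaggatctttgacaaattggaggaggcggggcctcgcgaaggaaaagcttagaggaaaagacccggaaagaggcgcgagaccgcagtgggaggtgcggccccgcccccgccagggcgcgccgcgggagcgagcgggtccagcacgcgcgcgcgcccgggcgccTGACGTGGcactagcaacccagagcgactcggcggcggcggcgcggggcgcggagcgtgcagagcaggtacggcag
Arf1 has a second, overlapping window that holds the same element. It begins 84 bases before the start in the Arf1 window shown, 7 bases before it in Copb2 and 26 bases before it in Sec24d, and at base 6 after the start in Sec23a. A match is a description of the letters and no evidence of binding.

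None of the 4 genes with the element passed the test in any comparison, and their values had no common direction. For Arf1, the array values were -0.15, -0.20 and 1.05 in Dil over WT (sets 1, 3 and 4), and -0.18, 0.55, 0.02 and 0.65 in Hyp over WT (sets 1 to 4). The high Arf1 values thus lay on the set 4 arrays of both carrier groups and on the set 2 array of Hyp and WT, with the other arrays near or below 0. The fitted change of Arf1 was 0.31 ± 0.15 in Dil minus WT and 0.27 ± 0.14 in Hyp minus WT (standard error of the fit, 4 mice per group), and without set 4 they were 0.09 and 0.05. Both Arf1 spots gave nearly the same fitted change in Dil minus WT, 0.03 apart. Copb2, the β′ subunit of COPI, was at 0.06 ± 0.07 and 0.08 ± 0.07 in these 2 comparisons. The COPII inner coat subunit Sec23a was at 0.05 ± 0.07 and 0.00 ± 0.06, and the cargo adaptor Sec24d at -0.15 ± 0.11 and -0.07 ± 0.10.

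The question of the first comparison was how dilated hearts differ from WT hearts. None of the 84 transport genes passed in Dil minus WT (limma, Benjamini-Hochberg adjusted p under 0.05 over all features), where 279 of 12097 features did (2.31%). That share rests on the fit, since 6 features passed with the replicate block, 0 without set 3 and 12 without set 4. At an unadjusted p under 0.05 there were 17 of 84 transport genes (20.2%), and 16.4% of all features were past that mark. Of these 17 genes, 14 were on the higher side (16.7%, against 8.18% of all features) and 3 on the lower side (3.57%, against 8.27%). The median fitted change was 0.029 over the 84 genes and 0.0032 over all features, and 52 of the 84 genes were above 0 (61.9%, against 51.2%). These differences between the list and all features are descriptions and were not tested. The median over the genes was 0.039, 0.051, 0.047 and 0.012 in sets 1 to 4, with the set 2 value estimated from the other arrays of that set. On the direct Dil and WT arrays alone it was 0.047, 0.0063 and 0.041 in sets 1, 3 and 4, against -0.0033, 0.0063 and 0.0052 for all features. The fitted median was 0.016 to 0.059 when a set was left out.

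In Dil minus WT 45 of 84 transport genes were within 0.1 of 0 on the log2 scale (53.6%, against 55.2% of all features), and 14 were 0.25 or more away from it (16.7%, against 14.5% of all features), 11 of them higher and 3 lower. The 95% interval of the fitted change stayed within ± 0.5, a fold of 1.41, for 73 of the 84 genes in Dil minus WT (86.9%, against 83.1% of all features) and for 79 in each of Hyp minus WT and Dil minus Hyp (94%, against 91.4% and 89.4%). For these genes a change larger than that fold lies outside the interval. The 11 genes in Dil minus WT whose interval reached further were Arf1, Arf4, Copg1, Golga4, Rab15, Rab20, Rab23, Rab3ip, Tmed3, Tmed5 and Tmed9.

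**Figure D1:**
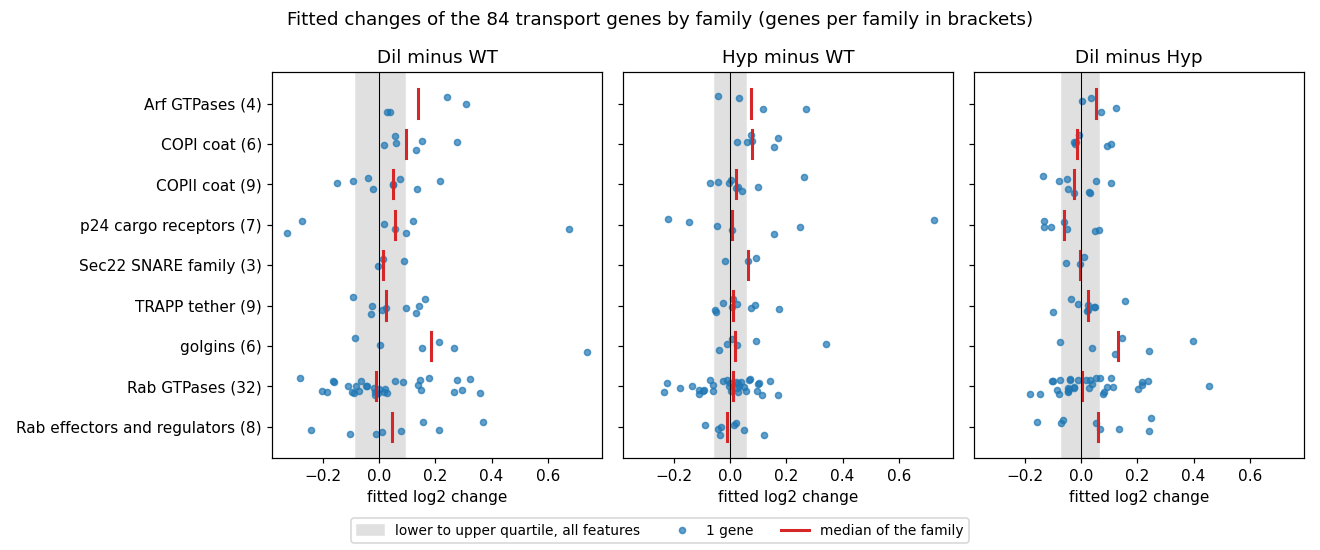
Fitted log2 change (horizontal axis) of each transport gene, one point per gene, by family (vertical axis, number of genes in brackets) in Dil minus WT, Hyp minus WT and Dil minus Hyp. Red bars are family medians and the grey band runs from the lower to the upper quartile of all features. Most points lie in or near the band, and Golga4 and Tmed9 lie furthest to the right in Dil minus WT.

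**Figure D2:**
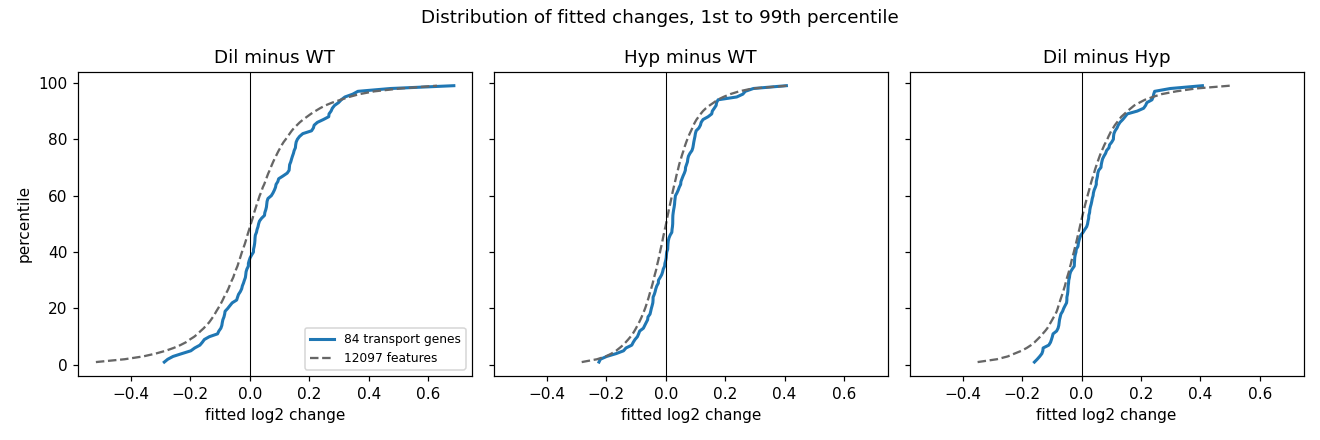
Percentile (vertical axis) against fitted log2 change (horizontal axis) for the 84 transport genes and all 12097 features in the 3 comparisons. In Dil minus WT the quartiles of the transport genes lie to the right of those of all features (lower quartile -0.038 against -0.082, upper quartile 0.15 against 0.092), and from the 95th to the 98th percentile the transport genes lie to the left.

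The member with the smallest p in Dil minus WT was Rab3ip, the exchange factor that activates Rab8 (also called Rabin8). Its log2 ratio of Dil over WT was 0.09, -0.07 and 0.99 on the arrays of sets 1, 3 and 4. Of these arrays only that of set 4 was high, and it was the only one with Dil in Cy3. The fitted dye term of Rab3ip was -0.24. With the dye term taken off, Rab3ip was 0.29, 0.47, 0.09 and 0.68 in sets 1 to 4, with set 2 estimated from its other arrays. A dye difference and a difference of the set 4 mice were not separated for this array. The fitted change was 0.37 ± 0.09 (adjusted p = 0.0699), and it was 0.23 without set 4. The fit also uses the arrays that link both groups through Hyp, on which Rab3ip was 0.47, 0.04, 0.33 and -0.02 in Dil over Hyp (sets 1 to 4). Rab8a, the GTPase that Rab3ip activates, was at 0.14 ± 0.06 in Dil minus WT (0.05 without set 4) and Rab8b at -0.02 ± 0.06.

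Golga4, a golgin of the trans-Golgi network, had the largest fitted change of the 84 genes in Dil minus WT. Its ratios were 0.99, -0.04 and 1.38 on the arrays of sets 1, 3 and 4, so sets 1 and 4 were high and set 3 was not. The fitted change was 0.74 ± 0.20 (adjusted p = 0.0824), a fold of 1.67, and 0.52 without set 4. Golga4 has 3 spots, with fitted changes of 0.32, 0.93 and 0.96, all higher in Dil. In Hyp over WT its ratios, averaged over the spots, were 0.04, 0.29, 0.19 and 0.60 in sets 1 to 4, above 0 on all 4 arrays. The fitted change of 0.34 ± 0.19 did not pass (adjusted p = 0.999) and was 0.17 without set 4. The same 3 spots gave -0.01, 0.57 and 0.47 in Hyp minus WT, so they were not alike there.

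Of the 6 Golg genes, 5 were above 0 in Dil minus WT (against 51.2% of all features), with a median of 0.18. That median was 0.18, -0.091, 0.26 and -0.029 in sets 1 to 4. Golga3, a Golgi golgin, had ratios of 0.12, 0.68 and 0.30 on the 3 direct arrays and a fitted change of 0.27 ± 0.10, which was 0.16 without set 3. Golgb1 (giantin), which spans the Golgi membrane, had ratios of 0.15, 0.37 and 0.03 and a fitted change of 0.21 ± 0.09. Golga7, which despite its symbol is a partner of a palmitoyltransferase and no coiled-coil tether, was at 0.15 ± 0.08, and at 0.07 without set 3. Golga1 was at 0.00 ± 0.06 and the cis-Golgi golgin Golga2 (GM130) at -0.08 ± 0.08, so the values of this group were not uniform.

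Among the Rab GTPases 14 were above 0 and 18 below it in Dil minus WT, with a median of -0.0093. On the higher side, Rab13, which acts in traffic to cell junctions, had ratios of -0.01, 0.57 and 0.45 in sets 1, 3 and 4 and a fitted change of 0.28 ± 0.09 (adjusted p = 0.144). Rab15, a GTPase of the recycling endosome, had ratios of 0.67, 0.26 and 0.45 and a fitted change of 0.30 ± 0.10, and Rab35, which acts in fast recycling, had 0.58, 0.32 and 0.41 and a fitted change of 0.27 ± 0.10. Both were higher in Dil on all 3 direct arrays. Rab23, known as a negative regulator of hedgehog signalling, had ratios of -0.12, 0.06 and 1.24, with Dil in Cy3 only on the last. With its dye term of -0.23 taken off, Rab23 was 0.07, 0.09, 0.22 and 0.91 in sets 1 to 4. Its fitted change was 0.36 ± 0.13, and 0.12 without set 4. Rab5a, the GTPase of early endosomes, was at 0.15 ± 0.07.

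Rab9, which acts in transport from late endosomes to the trans-Golgi network, was the member with the smallest p on the lower side. Its ratios of Dil over WT were -0.15, -0.13 and -0.41, below 0 on all 3 arrays, and the fitted change was -0.28 ± 0.08 (adjusted p = 0.109). Rab1b and Rab1a, GTPases of traffic between the endoplasmic reticulum and the Golgi, were at -0.16 ± 0.07 and -0.19 ± 0.09. Among the direct arrays Rab1a was below 0 only on that of set 4, with ratios of 0.10, 0.08 and -0.70. Its fitted change was -0.07 without set 4. With the dye term taken off, Rab1a was -0.11, -0.21, -0.0062 and -0.43 in sets 1 to 4. Rab12 had ratios of 0.09, -0.20 and -0.55 and a fitted change of -0.20 ± 0.10 that was -0.07 without set 4. Rab3a, a GTPase of regulated secretion, had ratios of -0.03, -0.17 and 0.0006 and a fitted change of -0.16 ± 0.09. Without set 3 Rab3a was at -0.05 and Rab1b at -0.11.

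The Rab11 family interacting proteins, which link Rab11 to recycling endosomes, pointed in both directions. Rab11fip5 had ratios of 0.30, 0.13 and 0.22 in Dil over WT, above 0 on every direct array, and a fitted change of 0.21 ± 0.07 (adjusted p = 0.144). Rab11fip1 had ratios of -0.34, -0.98 and -0.04, below 0 on every direct array, and a fitted change of -0.24 ± 0.12, which was -0.10 without set 3. Rab11fip2 was at -0.10 ± 0.07. The GTPases themselves were at -0.04 ± 0.06 (Rab11a) and -0.11 ± 0.11 (Rab11b).

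All 6 measured COPI subunits were above 0 in Dil minus WT (0.02 to 0.28, median 0.096), and also in Hyp minus WT (0.02 to 0.17, median 0.077). Of all features 51.2% and 50.6% were above 0. The sets were not alike. In Dil minus WT the COPI median was -0.043, 0.15, 0.064 and 0.23 in sets 1 to 4, below 0 in set 1. In Hyp minus WT it was 0.069, 0.22, 0.011 and 0.18. Both comparisons use the same WT mice. Copg1, the γ1 subunit, had ratios of -0.07, 0.18 and 0.59 in Dil over WT and a fitted change of 0.28 ± 0.12 (0.14 without set 4), the only COPI subunit at an unadjusted p under 0.05. Cope, the ε subunit, had ratios of 0.04, 0.16 and 0.43 and a fitted change of 0.13 ± 0.08 (0.02 without set 4), and Copa, the α subunit, was at 0.15 ± 0.09. Copz1 had 3 spots that gave -0.16, 0.06 and 0.26, so its mean of 0.06 hides spots of opposite sign.

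In the COPII coat, 5 of 9 genes were above 0 in Dil minus WT. Sec23b, an inner coat subunit that acts on the GTPase Sar1, had ratios of 0.34, 0.63 and 0.06, all above 0, and a fitted change of 0.22 ± 0.09 (0.14 without set 3). The p24 receptors were the most spread group, with fitted changes of -0.32 (Tmed5) to 0.68 (Tmed9). Tmed9 had ratios of 0.90, -0.45 and 1.35 in sets 1, 3 and 4, so set 3 opposed the other 2 arrays, and its fitted change of 0.68 ± 0.27 had a wide error (adjusted p = 0.228). Tmed3 had ratios of 0.02, 0.09 and -0.77 and a fitted change of -0.27 ± 0.11 that was -0.14 without set 4. With its dye term of 0.17 taken off, Tmed3 was -0.29, 0.095, -0.10 and -0.61 in sets 1 to 4. Tmed5 had ratios of -0.27, -1.53 and -0.34, the lowest single Dil over WT ratio of any transport gene lying on the set 3 array, and its fitted change was -0.13 without set 3.

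The arrays of Dil and WT differed in spread. The scaled median absolute deviation of all ratios was 0.172, 0.335 and 0.354 in sets 1, 3 and 4, and 0.116 to 0.2501 on the other 8 arrays. All 3 direct ratios had the same sign for 20 of 84 transport genes (23.8%, against 28.3% of all features). Of the 3, the ratio furthest from 0, in either direction, lay on the set 3 array for 40 of 84 transport genes (47.6%, against 39.8% of all features). For 29 it lay on the set 4 array (34.5%, against 45.1%).

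**Figure D3:**
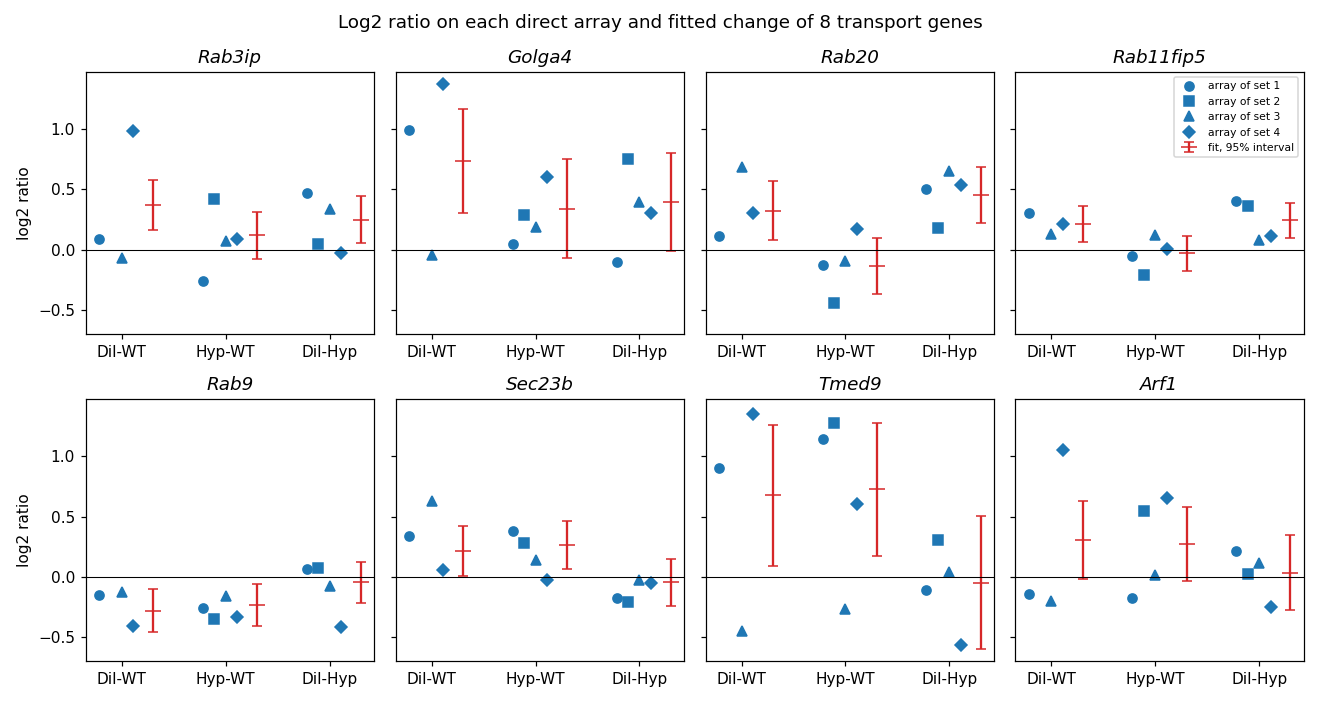
Log2 ratio (vertical axis) of 8 transport genes on each direct array, with 1 symbol per set, and the fitted change with its 95% interval in red, for Dil over WT, Hyp over WT and Dil over Hyp. Rab20 and Rab11fip5 are above 0 on all Dil over Hyp arrays, Rab9 is below 0 on all Dil over WT and Hyp over WT arrays, and Tmed9 is above 0 on all Dil over WT and Hyp over WT arrays but those of set 3.

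The second comparison asked how hypertrophic hearts differ from WT hearts. None of the 84 transport genes passed in Hyp minus WT, where 0 of 12097 features did (0%). At an unadjusted p under 0.05 there were 3 of 84 transport genes (3.57%) and 562 of all features (4.65%), with a smallest adjusted p of 0.685 over all features. The median fitted change was 0.023 over the 84 genes and 0.0010 over all features, and 53 of the 84 were above 0 (63.1%, against 50.6%). The direct arrays did not share this direction. The median ratio of the transport genes was 0.017, 0.059, -0.0065 and -0.028 on the arrays of sets 1 to 4. For all features it was -0.0115, 0.0112, 0.0010 and -0.0049. In set 2, 48 of 84 genes were above 0 (57.1%, against 53.6% of all features). In each of sets 3 and 4 it was 36 of 84 (42.9%, against 50.4% and 48.5%). The set 2 array held the direct ratio furthest from 0, in either direction, for 40 of the 80 transport genes measured on all 4 arrays (50%, against 29.1% of all features).

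Rab9 had the smallest p of the 84 genes in Hyp minus WT. Its ratios of Hyp over WT were -0.26, -0.35, -0.16 and -0.33 in sets 1 to 4, below 0 on all 4 arrays, and its fitted change was -0.23 ± 0.08 (adjusted p = 0.954). Rab11b had ratios of -0.26, -0.28, -0.17 and -0.14, likewise below 0 on all 4 arrays, and a fitted change of -0.22 ± 0.11. In all, 9 of the 80 transport genes measured on all 4 arrays had the same sign on each of them (11.2%, against 15.1% of all features). Of these, Golga4, Rab8a, Sec22c and Tmed7 were above 0 and Rab11b, Rab1b, Rab6a, Rab9 and Tmed3 below it. Rab12 was at -0.18 ± 0.09 (-0.10 without set 4) and Rab17 at -0.10 ± 0.06 (-0.06 without set 1).

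On the higher side stood Sec23b, with ratios of 0.38, 0.28, 0.14 and -0.03 in Hyp over WT and a fitted change of 0.26 ± 0.09 (adjusted p = 0.957). Tmed9 had the largest fitted change of the 84 genes, 0.73 ± 0.25 (adjusted p = 0.986). Its ratios were 1.14, 1.28, -0.26 and 0.60 in sets 1 to 4, so set 3 again opposed the other sets, and the fitted change was 1.14 without set 3. Tmed9 has 1 spot, so no second spot checks it. Tmed10, another p24 receptor, had ratios of 0.25, 0.72, -0.07 and 0.25 and a fitted change of 0.25 ± 0.13, which was 0.02 without set 2. Cope was at 0.16 ± 0.08, Rab13 at 0.17 ± 0.08 and Trappc10, a subunit of the TRAPPII complex, at 0.17 ± 0.10. Without set 4 Rab13 was at 0.11. The other p24 receptors Tmed3 and Tmed5 were at -0.14 ± 0.10 (-0.03 without set 4) and -0.22 ± 0.21 (-0.10 without set 3).

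The third comparison set dilated against hypertrophic hearts, both of them transgenic. None of the 84 transport genes passed in Dil minus Hyp, where 23 of 12097 features did (0.19%). At an unadjusted p under 0.05 there were 6 of 84 transport genes (7.14%) and 9.82% of all features. The median fitted change was 0.020 over the 84 genes and -0.0037 over all features, and 45 of the 84 were above 0 (53.6%, against 48.4%). Only 2 genes were 0.25 or more away from 0 (2.38%, against 7.47%), namely Rab20 and Golga4.

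Rab20, a GTPase of endosome and phagosome maturation, had the smallest p of the 84 genes in Dil minus Hyp. Its ratios of Dil over Hyp were 0.50, 0.18, 0.65 and 0.53 in sets 1 to 4, above 0 on all 4 arrays. The fitted change was 0.46 ± 0.11 (adjusted p = 0.146), a fold of 1.37, and it stayed between 0.36 and 0.51 when a set was left out. In the other comparisons Rab20 was at 0.32 ± 0.11 in Dil minus WT, with ratios of 0.11, 0.69 and 0.31 (0.18 without set 3), and at -0.13 ± 0.11 in Hyp minus WT, with ratios of -0.13, -0.45, -0.09 and 0.17. The Dil values are shared by the first and the last of these contrasts, so they are no independent evidence.

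Rab11fip5 had ratios of 0.41, 0.36, 0.08 and 0.11 in Dil over Hyp, above 0 on all 4 arrays, and a fitted change of 0.24 ± 0.07 (adjusted p = 0.202). Rab3ip was at 0.25 ± 0.09, Golga3 at 0.24 ± 0.10, Rab35 at 0.22 ± 0.10 and Rab15 at 0.20 ± 0.10. Golga4 had ratios of -0.10, 0.75, 0.39 and 0.31 and a fitted change of 0.40 ± 0.19.

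On the lower side, the COPII cargo adaptor Sec24c had ratios of -0.22, -0.28, -0.02 and -0.24 in Dil over Hyp and a fitted change of -0.14 ± 0.06 (adjusted p = 0.502). Rab3b, a GTPase of regulated secretion, had ratios of -0.32, -0.15, -0.21 and -0.26 and a fitted change of -0.18 ± 0.09. Both were below 0 on all 4 arrays, as were Rab14, Rab8b and Sec23b, and with Rab20 and Rab11fip5 they made 7 of 84 genes with the same sign on every array (8.33%, against 12.6% of all features). Rab3a was at -0.15 ± 0.09, Trappc8, a subunit of the TRAPPIII complex, at -0.10 ± 0.06 and Rab22a, an endosomal GTPase, at -0.08 ± 0.07.

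The 4 Arf GTPases, which recruit coats, were all above 0 in Dil minus WT (0.03 to 0.31) and in Dil minus Hyp. In Hyp minus WT 3 of 4 were above 0. Of all features 51.2%, 48.4% and 50.6% were above 0 in these comparisons. The Arf median was 0.16, 0.13, 0.030 and 0.052 in sets 1 to 4 in Dil minus WT. In Dil minus Hyp it was -0.027, 0.12, 0.069 and 0.046. Arf4 had ratios of 0.30, 0.32 and 0.01 in Dil over WT and a fitted change of 0.24 ± 0.13 (0.14 without set 3). The TRAPP subunits lay between -0.09 (Trappc8) and 0.16 (Trappc11) in Dil minus WT and between -0.05 (Trappc1) and 0.17 (Trappc10) in Hyp minus WT, with none at an unadjusted p under 0.05. The 3 Sec22 genes lay between -0.01 and 0.09 in Dil minus WT and between -0.02 and 0.09 in Hyp minus WT. In the TRAPP and Sec22 groups no gene was 0.25 or more away from 0 in any comparison.

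The 84 genes were covered by 117 spots, and 26 genes had several. Of these 26, 12 had spots of opposite sign in Dil minus WT, though only Copz1 and Rab14 had spots beyond 0.1 on both sides of 0. The 4 Rab14 spots gave -0.24, -0.21, -0.09 and 0.16. The median range between the spots of a gene was 0.13 in Dil minus WT, 0.099 in Hyp minus WT and 0.060 in Dil minus Hyp. The median standard error of the 84 genes was 0.090, 0.085 and 0.085. These measures are unlike, since the spots of a gene share their mice and the standard error includes differences between mice.

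**Figure D4:**
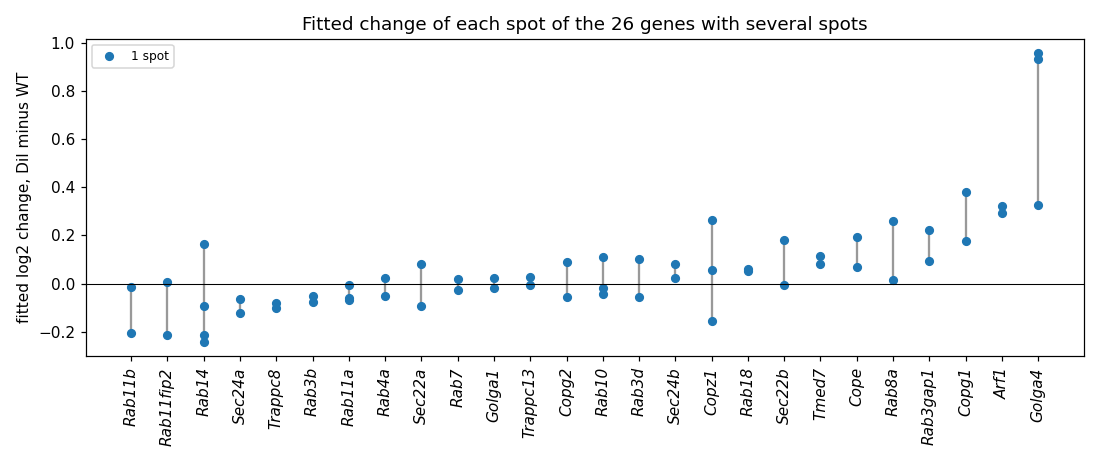
Fitted log2 change in Dil minus WT (vertical axis) of each spot of the 26 transport genes with several spots, ordered by their mean. Grey lines join the spots of a gene. All 3 Golga4 spots are above 0, and Rab14 and Copz1 have spots on both sides of 0.

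Other genes of the route were taken from 5 lists, and 145 of their 207 genes were measured. In Dil minus WT 1 of the 145 passed, on the higher side, against 2.31% of all features, and at an unadjusted p under 0.05 there were 21 higher and 5 lower (17.9%, against 16.4%). In Hyp minus WT and in Dil minus Hyp 0 of the 145 passed, against 0% and 0.19% of all features. In each, 11 of the 145 were at an unadjusted p under 0.05 (7.59%), against 4.65% of all features in Hyp minus WT and 9.82% in Dil minus Hyp. The gene that passed was Arfgap3, which switches off Arf1 on COPI vesicles. Its ratios were 0.31, 0.91 and 0.71 in Dil over WT, above 0 on all 3 arrays, and its fitted change was 0.60 ± 0.12 (adjusted p = 0.036), a fold of 1.51. It also passed without set 2 (0.65, adjusted p = 0.0436). The fitted change was 0.72 without set 1 (adjusted p = 0.0638), 0.49 without set 3 (adjusted p = 0.325), 0.52 without set 4 (adjusted p = 0.235) and 0.61 with the array of Hyp1 and WT1 left out (adjusted p = 0.0532), and did not pass in these fits. The replicate block takes off the dye term fitted over all arrays and then estimates each set from its own 3 mice. With it the change of Arfgap3 was 0.55 ± 0.13 (adjusted p = 0.144).

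The list of 21 measured genes of COPII assembly and cargo held 0 passing genes. Above 0 were 16 in Dil minus WT (median 0.099) and 15 in Hyp minus WT (median 0.079), against 51.2% and 50.6% of all features. The list median was 0.033, 0.19, 0.011 and 0.11 in sets 1 to 4 in Dil minus WT. In Hyp minus WT it was 0.090, 0.22, 0.013 and 0.082. In Hyp minus WT, Surf4, a cargo receptor of the endoplasmic reticulum, had ratios of 0.43, 0.54, 0.18 and -0.01 and a fitted change of 0.34 ± 0.10 (adjusted p = 0.912). The list of 21 Arf regulators and effectors had a median of -0.028 in Dil minus WT, with Arfgap3 above and Arl3, a GTPase of ciliary traffic, below 0 (-0.29 ± 0.08, adjusted p = 0.0922). In Hyp minus WT, Arl2, a GTPase that binds tubulin folding factors, was at -0.19 ± 0.08. Among the 24 Rab regulators and effectors, Rabgap1l, a Rab GTPase activating protein, was at 0.22 ± 0.07 in Hyp minus WT.

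Of the 46 SNAREs, fusion factors and tethers, 0 passed, with medians of 0.039 in Dil minus WT and 0.011 in Hyp minus WT. The SNARE Stx17, which acts in autophagosome fusion, was at -0.25 ± 0.09 in Hyp minus WT, and Vti1a, a SNARE of the trans-Golgi network, was at -0.17 ± 0.07 in Dil minus Hyp. Of the 33 genes of clathrin, adaptors and retromer, 27 were above 0 in Dil minus WT (against 51.2% of all features, median 0.14) and 0 passed. The median of this list was 0.075, 0.14, 0.026 and 0.23 in sets 1 to 4. The difference from all features was not tested. The clathrin light chain Cltb had ratios of 0.08, 0.40 and 0.98 and a fitted change of 0.40 ± 0.10 in Dil minus WT (adjusted p = 0.0652), and was at 0.33 ± 0.09 in Dil minus Hyp. Ap4s1, a subunit of the AP-4 adaptor, was at -0.25 ± 0.09 in Dil minus WT. Ap2s1, the small subunit of the endocytic adaptor AP-2, had ratios of 0.01, 0.57, 0.49 and 1.07 in Dil over Hyp and a fitted change of 0.54 ± 0.10 (adjusted p = 0.075).

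Markers of the cell types of the ventricle were measured in part, and 0 of 24 passed in any comparison. In Dil minus WT the cardiomyocyte genes Ttn and Ryr2 were at 0.08 ± 0.07 and -0.33 ± 0.12. Of 7 fibroblast markers 5 were above 0 in Dil minus WT (against 51.2% of all features, median 0.16), with Col3a1 at 0.62 ± 0.17. Their median was -0.10, -0.06, 0.33 and 0.28 in sets 1 to 4, so the sets did not share a direction. The 2 measured smooth muscle markers had a median of -0.38, with Myh11 at -0.73 ± 0.18. Only 1 of these 2 was at an unadjusted p under 0.05. Of 7 endothelial markers 3 were above 0, and 1 was lower at an unadjusted p under 0.05 (against 8.27% of all features). The 3 measured adipocyte markers had a median of -0.22 and the 2 macrophage and leukocyte markers one of 0.19. The 1 measured erythrocyte marker was at 0.35. In Dil minus Hyp the adipocyte median was -0.38 and the erythrocyte marker was at 0.59. The part of cell makeup in the values of the transport genes was not tested.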

How the data were processed

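The authors deposited 1 table of log ratios of 2 dyes for 11 arrays, taken here as log2 values. Per the labels, 25 µg of total RNA per mouse was labelled with Cy3 or Cy5. How the slides were scanned, corrected and normalized is not given in sources used here, nor is spot brightness, so the depth is unknown and the few arrays and mice limit the precision. The values could also be natural logarithms, in which case the folds are too small.

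The column of WT1 and Hyp1 was displaced and was realigned, a step chosen after seeing the data: 11520 spots were moved by 8 blocks and 2560 by a second shift, and 1280 spots (7.25%) could not be placed. Its correlation with the set 1 sum (the other arrays of that set added) was 0.789 after and 0.492 before. The positions to move were picked by correlation with that sum, so this rise is no independent check. Empty cells were not used for the pick. Of 221 empty cells in the first shift, 217 fell on cells empty on all other arrays after the move, and 129 did so before it. Because of the spots without a place, Arf6, Sec23ip, Tmed2 and Trappc11 lack a value on the array of WT1 and Hyp1.

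Spots of a gene were averaged, and a feature needed 9 of 11 arrays. Generalised least squares per feature with group and dye terms, mice as random effects and a shared mouse to residual variance ratio of 0.305 was moderated with limma 3.58.1 (R 4.3.3; prior degrees of freedom 3.26) and adjusted by Benjamini-Hochberg over 12097 features. Intervals of 95% use its t distribution. The shared ratio can understate the error of genes that vary more between mice. The fit was tested on data simulated from its own model, with 200 features changed in Dil minus WT. It recovered 60 of 100 features changed by 0.5 on the log2 scale and 96 of 100 changed by 1, with 4 false calls. Changes of 0.5 were thus often missed, and smaller ones were not simulated. Same-numbered arrays share mice, so numbers pair the samples by design. Named were all passing genes, the 8 transport genes with the smallest p per direction and comparison, and the 2 genes per direction over the pathway lists. Other genes were picked after their values were seen. Members, lists and tests were chosen with earlier results of these data known.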

Additional observations from a re-analysis of the deposited data

How the results depend on the processing

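No transport gene passed in any of the 3 comparisons under any of the 16 alternatives. The smallest adjusted p that any named transport gene reached was 0.0509 (Rab3ip in Dil minus WT, without the mouse effect). With the replicate block, 0 transport genes passed and the smallest adjusted p was 0.129 (Golga4, Dil minus WT). The block estimates each set from its own mice, but only after the dye term shared by all sets is taken off. The median of the transport genes in Dil minus WT ran from 0.016 to 0.059 when a set was left out, with 0.059 without set 3 and 0.051 without set 4. Over all alternatives the median stayed above 0 in each comparison, but the alternatives reuse the same arrays. Single sets differed in sign. In sets 1 to 4 the median was -0.0029, -0.0018, 0.033 and 0.0073 in Dil minus Hyp, and 0.025, 0.040, -0.0032 and -0.032 in Hyp minus WT. Of the 48 named values of transport genes, 1 turned: Rab1a in Hyp minus WT ran from -0.171 to 0.016 with a set left out, and was above 0 without set 4. The number of transport genes at an unadjusted p under 0.05 ran from 9 to 21 in Dil minus WT, from 1 to 9 in Hyp minus WT and from 4 to 9 in Dil minus Hyp. In the main fit it was 17, 3 and 6 of 84 (20.2%, 3.57% and 7.14%, against 16.4%, 4.65% and 9.82% of all features). The share of all features was not worked out for the alternatives, so these ranges have no background to be read against.

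Counts over all features moved more. In Dil minus WT 279 passed, against 159 without the array of WT1 and Hyp1, 121 with arrays scaled to the same spread, 432 without the mouse effect, 7 on direct arrays only, 6 with the replicate block, and 0 to 121 with a set left out. In Dil minus Hyp 23 passed, against 7 without that array, 41 with it as deposited, 42 without the dye term, 54 without the mouse effect, 0 on direct arrays only, 0 with the replicate block, and 0 to 15 with a set left out. Arfgap3 also missed the threshold with the array as deposited (adjusted p = 0.0517) and on direct arrays only (adjusted p = 0.163), while Cltb in Dil minus WT and Ap2s1 in Dil minus Hyp passed with the array as deposited, with scaled arrays and without the mouse effect. The causes were not tested. Moving back only the first shift, an alternative chosen after seeing the data, changed no call of a named gene.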
